A study of Mus musculus with 12 samples.

Results

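The genes described here are 34 genes of cholesterol and fatty acid synthesis and their control, taken from a normalized count table of 23479 genes in the mouse. They were chosen by name from the pathways: 8 enzymes of the mevalonate pathway, 11 enzymes from squalene to cholesterol, 4 genes of SREBP control, 3 genes of sterol transport and 8 enzymes of fatty acid synthesis. All 34 were found in the table, and 32 had a mean normalized count of at least 10 over the 12 libraries and entered the tests. Scd1 and Fads2 fell under that minimum.

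Total RNA was sequenced from splenic myeloid-derived suppressor cells (MDSC), a class of immature myeloid cell that accumulates with tumours and dampens T cell responses. The cells were sorted by flow cytometry from the spleens of C57BL/6 mice that carried B16 tumours, a melanoma line. M-MDSC are the monocytic population and PMN-MDSC the polymorphonuclear, neutrophil-like population. Control mice (Ctrl) had tumours and no drug treatment, and lymphodepleted mice (LD) received cyclophosphamide and fludarabine once the tumours exceeded 25 mm2, with spleens taken 7 days after treatment. Both populations were taken from both kinds of mice, which gives 4 groups of 3 libraries, numbered 001 to 003, and no group is free of tumour. The series describes 3 mice per treatment without tying a library to an animal. The age and sex of the mice and the markers used for sorting are not given in the sources used here. P-values therefore measure the spread between these libraries, which may be technical.

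Cholesterol is built from acetyl-CoA through mevalonate, the isoprenoid farnesyl diphosphate, squalene and a series of sterols made in the endoplasmic reticulum. When sterols in that membrane run low, the escort protein Scap carries the precursor of the transcription factor Srebf2 (SREBP-2) to the Golgi, where proteases release its active part, and the genes of the pathway, Srebf2 and Insig1 among them, are switched on. Insig1 and Insig2 hold Scap back when sterols are plentiful. Fatty acids are built by a parallel route that starts from cytosolic acetyl-CoA made by Acly, and monocytes and neutrophils use both products for membranes and lipid mediators.

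Between 8906045 and 16242926 reads per library were assigned to genes. The labelled populations carried their markers: 6 monocyte genes summed to between 89344 and 107484 normalized counts in M-MDSC Ctrl and to between 9755 and 12056 in PMN-MDSC Ctrl, and 6 neutrophil genes summed to between 5554 and 6246 in M-MDSC Ctrl and to between 359472 and 390861 in PMN-MDSC Ctrl. The M-MDSC Ctrl 003 library stood apart in the number of genes with a read, 17776 against 13349 and 14124 in the other libraries of its group. In LD mice the 001 library of each population stood apart in cycling genes: Mki67, a marker of dividing cells, was at 8133, 2434 and 3201 normalized counts in M-MDSC LD and at 6242, 1261 and 2025 in PMN-MDSC LD. Counts of genes that passed for LD are therefore also given without the 2 libraries numbered 001 from LD mice. In sorted bulk samples, fewer cells of a type and less RNA per cell cannot be told apart.

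Genes of cholesterol synthesis rose in PMN-MDSC after lymphodepletion. Of the 32 tested genes, 11 rose and 0 fell in LD against Ctrl (limma on log2 of the normalized count plus 1, Benjamini-Hochberg adjusted p under 0.05 over 11122 genes), where 7.17% of all tested genes rose, 8.51% fell and 15.7% passed in either direction. They were Srebf2, 7 of the 19 enzymes of sterol synthesis (Hmgcs1, Fdps, Fdft1, Sqle, Cyp51, Sc4mol and Nsdhl), the sterol carriers Stard4 and Npc2, and Acly. The median log2 change over the 32 genes was 0.62, beside -0.05 over all tested genes. In M-MDSC 1 of the 32, Lbr, passed, where 2.54% of all tested genes rose, 0.468% fell and 3.01% passed in either direction, and the median log2 change was 0.20 beside -0.04. Without the LD 001 libraries of both populations, 12 of the 32 passed in PMN-MDSC and 2 in M-MDSC, all higher. In PMN-MDSC Nsdhl was lost there while Idi1 and Lbr were added, and the 2 in M-MDSC were Lbr and Srebf2. Calls over all genes grew as well, from 798 higher and 947 lower to 1163 and 1295 in PMN-MDSC. In M-MDSC they went from 283 and 52 to 357 and 100. With each population fitted alone, 7 passed in PMN-MDSC, all higher, and 6 in M-MDSC, 5 higher and 1 (Elovl6) lower. Over all genes that setting called 724 higher and 702 lower in PMN-MDSC, and 406 and 126 in M-MDSC. Over the 34 genes, 14 were higher and 4 lower in each PMN-MDSC LD library than in any PMN-MDSC Ctrl library, where 31.9% of all tested genes did not overlap in either direction. In M-MDSC 11 were higher and 3 lower, against 23.1%. Without the LD 001 libraries the numbers were 17 and 4 in PMN-MDSC and 13 and 3 in M-MDSC. Leaving out a library can only keep or raise such a count, so these larger numbers are not a stronger result. The share over all tested genes was not taken for this setting.

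**Figure D1:**
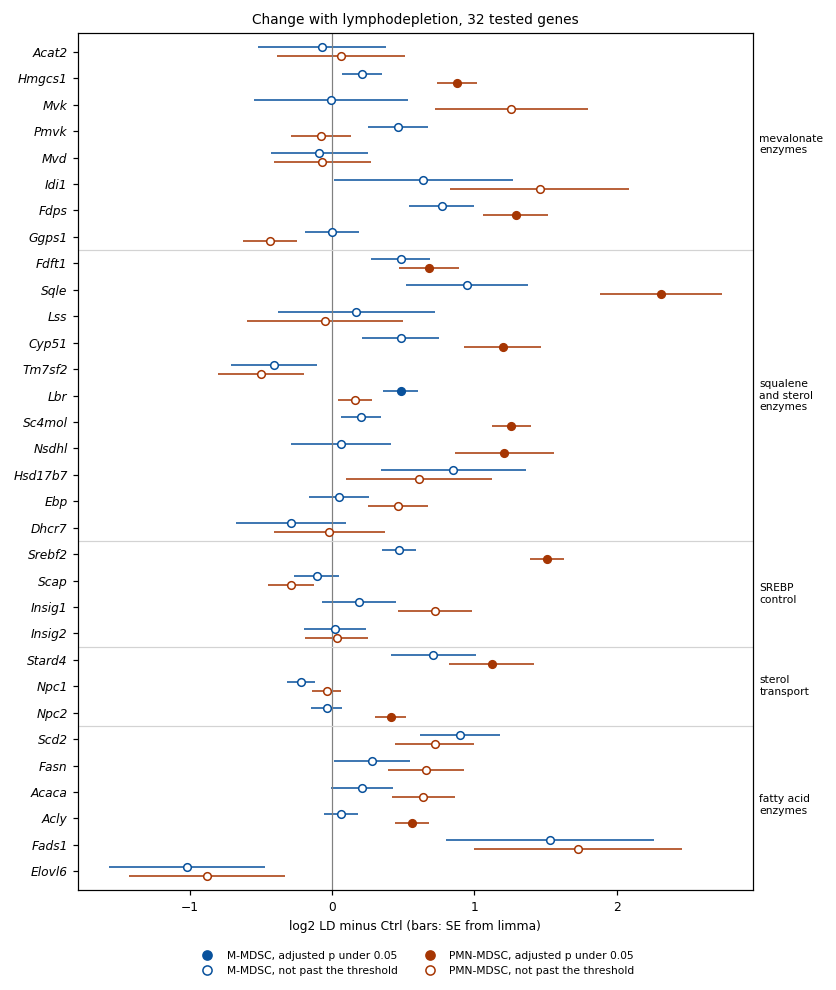
The log2 change between LD and Ctrl (horizontal axis, bars are standard errors from limma, n = 3 libraries per group) is shown for each of the 32 tested genes in M-MDSC (blue) and PMN-MDSC (brown), with filled circles for an adjusted p under 0.05. The 11 filled PMN-MDSC circles run from 0.41 for Npc2 to 2.31 for Sqle, and the single filled M-MDSC circle is Lbr at 0.48.

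Control regions are shown because 7 of the 19 sterol synthesis enzymes, and Srebf2, rose in PMN-MDSC. RefSeq windows from 250 bases before to 50 bases after a transcription start (GRCm38.p6) were found for 26 of the 34 genes, Sc4mol under its current symbol Msmo1. The stretches below lie upstream of the start of 4 genes that rose, read 5′ to 3′ on the gene's strand, and stop short of any annotated exon. Capitals mark the sterol regulatory element core TCACNCCAC, the NF-Y site CCAAT and the Sp1 site GGGCGG, each on either strand. The first is Hmgcs1 (chr13:119690171-119690350, plus strand), the second Srebf2 (chr15:82147089-82147180, plus strand), the third Nsdhl (chrX:72918412-72918520, plus strand) and the last Cyp51 (chr5:4104747-4104877, minus strand).
Hmgcs1: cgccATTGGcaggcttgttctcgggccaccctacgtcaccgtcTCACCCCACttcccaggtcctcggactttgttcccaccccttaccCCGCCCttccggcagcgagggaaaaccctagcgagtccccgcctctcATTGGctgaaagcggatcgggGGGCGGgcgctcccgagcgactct
Srebf2: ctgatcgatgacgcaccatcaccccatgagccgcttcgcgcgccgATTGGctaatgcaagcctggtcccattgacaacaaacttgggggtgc
Nsdhl: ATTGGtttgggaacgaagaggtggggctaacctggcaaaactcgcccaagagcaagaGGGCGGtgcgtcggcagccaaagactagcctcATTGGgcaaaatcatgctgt
Cyp51: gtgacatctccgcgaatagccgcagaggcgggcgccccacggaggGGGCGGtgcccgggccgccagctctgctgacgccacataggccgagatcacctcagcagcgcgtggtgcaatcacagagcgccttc
The Hmgcs1 stretch holds 1 sterol element core, 2 CCAAT boxes and 2 GC boxes, the Srebf2 stretch 1 CCAAT box, the Nsdhl stretch 2 CCAAT boxes and 1 GC box, and the Cyp51 stretch 1 GC box. Over the whole windows, CCAAT was found in 15 of the 16 sterol synthesis enzymes with a window, against 43.2% of the 8306 tested genes with one and 41.1% of all 27025 genes with one. The GC box was found in 14 of the 16, against 69.0% and 38.2%. The sterol element core was found in 1 of the 16, Hmgcs1, against 1.3% and 1.4%, and the E-box CACGTG in 2 of the 16, against 12% and 8.1%. The shorter form CACNCCAC, which overlaps the core, was found in 2 of the 16, against 7.5% and 7.1%. Of the 11 genes that rose in PMN-MDSC, 7 have a window, and of these 7 hold CCAAT and 7 GGGCGG. Of the 19 other genes with a window, 14 hold CCAAT and 14 GGGCGG. The counts of CCAAT, GC box, core and E-box over the 16 genes were the same when the 250 upstream bases alone were searched, while among the 7 genes that rose CCAAT was then found in 6, since its only match in Acly lies downstream of the start.

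Among the mevalonate enzymes, Hmgcs1 and Fdps rose in PMN-MDSC and 0 of the 8 fell. Hmgcs1 (chr13:119690379-119708260), the cytosolic synthase that makes HMG-CoA, was at 226.5, 186.3 and 191.5 normalized counts in PMN-MDSC Ctrl and at 372.0, 361.8 and 380.0 in PMN-MDSC LD. The groups did not overlap, and the log2 change was 0.88 ± 0.14 (SE, adjusted p = 0.00113). In M-MDSC the same gene was at 420.9, 514.8 and 442.6 in Ctrl and at 562.9, 577.4 and 456.1 in LD, so that LD 003 lay within the Ctrl range (log2 change 0.21 ± 0.14, adjusted p = 0.622). Of the Hmgcs1 exon bases, 12.1% are shared with Gm48342 on the opposite strand. Fdps (chr3:89093588-89101959), which makes farnesyl diphosphate, was at 32.6, 35.2 and 27.1 in PMN-MDSC Ctrl and at 66.3, 83.8 and 86.9 in LD, with no overlap and a log2 change of 1.29 ± 0.23 (adjusted p = 0.0027). The M-MDSC values were 135.5, 151.2 and 127.9 in Ctrl and 222.4, 276.8 and 212.8 in LD. These groups did not overlap either, and the log2 change of 0.77 ± 0.23 missed the threshold (adjusted p = 0.0959). Fdps shares 26.7% of its exon bases with the same-strand gene model Gm43738. Whether reads were counted by strand is not given in the sources used here, so reads of overlapping exons on opposite strands cannot be told apart.

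The other 6 mevalonate genes did not pass in either population. Idi1, the isopentenyl diphosphate isomerase, was at 4.1, 7.9 and 20.8 in PMN-MDSC Ctrl and at 9.5, 45.6 and 40.7 in LD, and the change of 1.46 ± 0.63 rested on groups that overlapped. Without PMN-MDSC LD 001, or without both LD 001 libraries, Idi1 passed in PMN-MDSC. Mvk, mevalonate kinase, was between 7.9 and 9.2 in PMN-MDSC Ctrl and at 40.6, 32.4 and 7.0 in LD (log2 change 1.26 ± 0.54, adjusted p = 0.128). For Mvk, PMN-MDSC LD 003 was near the Ctrl libraries, with 5 reads against 9, 9 and 5 in PMN-MDSC Ctrl. Pmvk and Mvd, the kinase and decarboxylase that follow, had log2 changes of -0.08 ± 0.21 and -0.07 ± 0.34 in PMN-MDSC, and Acat2, which joins acetyl-CoA units at the start of the route, one of 0.06 ± 0.45. Ggps1, which makes the branch product geranylgeranyl diphosphate, was lower in each PMN-MDSC LD library (193.4, 229.5 and 225.8) than in any PMN-MDSC Ctrl library (325.4, 240.8 and 322.4), with a log2 change of -0.44 ± 0.19 that missed the threshold (adjusted p = 0.124).

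Of the 11 enzymes from squalene to cholesterol, 5 rose in PMN-MDSC. Sqle (chr15:59315077-59331192), squalene epoxidase, a rate-limiting step, had the highest fold of the 11: it was at 11.2, 3.5 and 8.0 in PMN-MDSC Ctrl and at 31.1, 39.7 and 44.9 in LD, a log2 change of 2.31 ± 0.43 (adjusted p = 0.00345). Its level stayed low in these cells, and M-MDSC held more of it in Ctrl (48.6, 69.9 and 70.1) and in LD (147.1, 157.1 and 75.9). The M-MDSC groups did not overlap, with LD 003 close to the Ctrl libraries (log2 change 0.95 ± 0.43, adjusted p = 0.356). Sc4mol (Msmo1, chr8:64718139-64733792), the methyl sterol monooxygenase, was at 242.8, 254.0 and 234.6 in PMN-MDSC Ctrl and at 504.5, 631.0 and 629.6 in LD, a log2 change of 1.26 ± 0.14 (adjusted p = 1.0e-04). In M-MDSC it was at 249.7, 310.0 and 309.1 in Ctrl and at 339.0, 322.7 and 333.0 in LD (log2 change 0.20 ± 0.14, adjusted p = 0.639). The populations overlapped in Ctrl, and Sc4mol was higher in every PMN-MDSC LD library than in any M-MDSC library.

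Cyp51 (chr5:4081145-4104746), the lanosterol demethylase, was at 32.6, 62.4 and 30.3 in PMN-MDSC Ctrl and at 94.7, 82.4 and 101.0 in LD, with no overlap and a log2 change of 1.20 ± 0.27 (adjusted p = 0.00955). The M-MDSC values were 251.0, 242.1 and 217.7 in Ctrl and 288.3, 435.6 and 283.7 in LD, where 1 library, LD 002, lay far above the others (log2 change 0.48 ± 0.27, adjusted p = 0.525). Nsdhl (chrX:72918557-72958514), the sterol dehydrogenase that works with Sc4mol, was at 12.2, 23.7 and 28.7 in PMN-MDSC Ctrl and at 58.2, 51.5 and 37.9 in LD, a log2 change of 1.21 ± 0.35 (adjusted p = 0.0309). Nsdhl in M-MDSC was at 65.5, 84.2 and 95.9 in Ctrl and at 86.9, 87.5 and 79.8 in LD (log2 change 0.06 ± 0.35). Fdft1 (chr14:63145150-63179578), squalene synthase, was at 71.4, 78.2 and 87.8 in PMN-MDSC Ctrl and at 116.3, 130.9 and 134.6 in LD, with no overlap and a log2 change of 0.68 ± 0.21 (adjusted p = 0.0408). Fdft1 in M-MDSC was at 150.5, 184.7 and 183.4 in Ctrl and at 208.6, 317.6 and 211.8 in LD (log2 change 0.48 ± 0.21, adjusted p = 0.324). Fdft1 shares 18.3% of its exon bases with Ctsb on the opposite strand.

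The calls of Nsdhl and Fdft1 depended on single libraries and on the method. Nsdhl held in 8 of 12 leave-one-out fits and was lost without PMN-MDSC Ctrl 001 or 002 or PMN-MDSC LD 001 or 002, and also without both LD 001 libraries. Fdft1 held in 4 of the 12, and was lost without any single Ctrl library of either population and without PMN-MDSC LD 002 or 003. Hmgcs1, Fdps, Sqle, Sc4mol and Cyp51 passed in 12 of 12. Both Nsdhl and Fdft1 were lost with no minimum level and with the population fitted alone, and Fdft1 also with upper-quartile scaling and with edgeR. With PMN-MDSC fitted alone the 7 genes that passed were Hmgcs1, Fdps, Sqle, Sc4mol, Cyp51, Srebf2 and Acly, so Stard4 and Npc2 were lost there too.

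The remaining sterol enzymes did not pass in PMN-MDSC. Ebp, the sterol isomerase, was at 139.8, 135.4 and 119.7 in PMN-MDSC Ctrl and at 163.7, 183.9 and 196.3 in LD, with no overlap and a log2 change of 0.46 ± 0.21 (adjusted p = 0.148). Hsd17b7, the ketosteroid reductase of the same steps, had a log2 change of 0.61 ± 0.51, and Lss, which closes the sterol rings, and Dhcr7, which makes cholesterol in the last step, changes of -0.05 ± 0.55 and -0.02 ± 0.39. Tm7sf2, a sterol reductase, was lower in each LD library of both populations than in the Ctrl libraries of the same population, by a log2 change of -0.50 ± 0.30 in PMN-MDSC and -0.41 ± 0.30 in M-MDSC, and neither passed. Lbr (chr1:181815335-181843046) has the same reductase activity and is also the lamin B receptor of the nuclear envelope, which neutrophils need for their lobed nuclei. In M-MDSC it was at 1421.5, 1540.6 and 1360.4 in Ctrl and at 1862.5, 2116.0 and 2072.8 in LD, a rise of 0.48 ± 0.12 (log2, adjusted p = 0.0417) with no overlap. That call held in 3 of the 12 fits without 1 library, namely those without one of the PMN-MDSC LD libraries, and was lost without any other library and with no minimum level or upper-quartile scaling. In PMN-MDSC Lbr was at 9781.8, 8864.9 and 8661.0 in Ctrl and at 8096.4, 11003.7 and 11665.7 in LD (log2 change 0.16 ± 0.12, adjusted p = 0.407). Without PMN-MDSC LD 001, or without both LD 001 libraries, Lbr passed as higher in PMN-MDSC too.

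Among the 4 genes of SREBP control, Srebf2 rose in PMN-MDSC. Srebf2 (chr15:82147181-82205379) was at 599.8, 591.5 and 573.0 in PMN-MDSC Ctrl and at 1510.8, 1603.3 and 1959.0 in LD, a log2 change of 1.51 ± 0.12 (adjusted p = 2.4e-05) that held in 12 of 12 fits without 1 library. In M-MDSC it was at 1585.0, 1455.4 and 1500.6 in Ctrl and at 1765.4, 2502.3 and 2078.7 in LD. These groups did not overlap, and the log2 change of 0.47 ± 0.12 missed the threshold (adjusted p = 0.0552, and past the threshold without M-MDSC LD 001, PMN-MDSC LD 001 or PMN-MDSC LD 003). Insig1, a target of the pathway that also restrains it, was at 46.9, 46.6 and 62.3 in PMN-MDSC Ctrl and at 105.5, 88.3 and 67.3 in LD, with no overlap and a log2 change of 0.72 ± 0.26 (adjusted p = 0.0693) that passed without M-MDSC LD 002 or PMN-MDSC LD 003. In M-MDSC Insig1 was at 254.2, 244.0 and 233.4 in Ctrl and at 242.7, 405.9 and 220.7 in LD, where LD 002 alone lay above the Ctrl range. Insig2 and Scap had PMN-MDSC log2 changes of 0.03 ± 0.22 and -0.29 ± 0.16, and M-MDSC changes of 0.02 ± 0.22 and -0.11 ± 0.16.

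**Figure D2:**
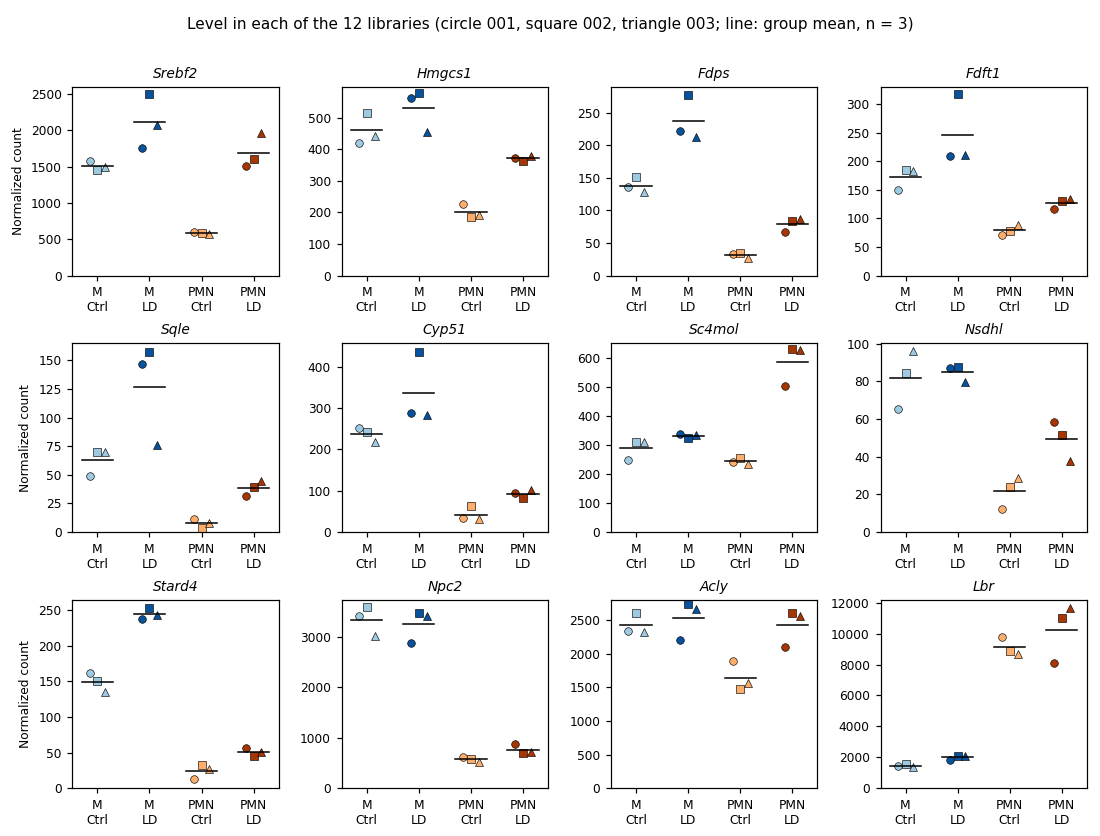
Normalized counts (vertical axis, from 0) are shown for each of the 12 libraries (circle 001, square 002, triangle 003) with the group mean as a line, for the 11 genes that rose in PMN-MDSC LD and for Lbr, which rose in M-MDSC LD. The PMN-MDSC LD symbols lie above the PMN-MDSC Ctrl symbols for the 11 genes, and for Srebf2 they reach from 1510.8 to 1959.0, against 573.0 to 599.8 in Ctrl.

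Of the 3 sterol transport genes, Stard4 and Npc2 rose in PMN-MDSC. Stard4, a cytosolic carrier that moves cholesterol between membranes, was at 13.3, 32.5 and 27.1 in PMN-MDSC Ctrl and at 56.8, 45.6 and 50.5 in LD, a log2 change of 1.12 ± 0.30 (adjusted p = 0.0228) that was lost without PMN-MDSC Ctrl 001. In M-MDSC Stard4 was at 162.1, 150.2 and 135.2 in Ctrl and at 237.6, 252.2 and 242.3 in LD, with no overlap and a log2 change of 0.71 ± 0.30 (adjusted p = 0.307). Npc2, which hands cholesterol on inside lysosomes, was at 623.3, 577.5 and 529.9 in PMN-MDSC Ctrl and at 872.4, 707.5 and 719.4 in LD (0.41 ± 0.11, adjusted p = 0.0262). The Npc2 call passed in 9 of 12 fits and was lost without PMN-MDSC Ctrl 002 or 003 or PMN-MDSC LD 001. In M-MDSC Npc2 was at 3407.3, 3579.6 and 3010.7 in Ctrl and at 2870.9, 3476.2 and 3416.5 in LD (-0.04 ± 0.11). Npc1, the membrane partner of Npc2 in lysosomes, had log2 changes of -0.04 ± 0.10 in PMN-MDSC and -0.22 ± 0.10 in M-MDSC.

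Of the 6 tested fatty acid enzymes, Acly rose in PMN-MDSC. Acly, which splits citrate to cytosolic acetyl-CoA for both pathways, was at 1899.4, 1478.4 and 1559.5 in PMN-MDSC Ctrl and at 2097.8, 2606.4 and 2570.4 in LD, a log2 change of 0.56 ± 0.12 (adjusted p = 0.00694) that held in 12 of 12 fits without 1 library. In M-MDSC Acly was at 2339.8, 2609.4 and 2330.3 in Ctrl and at 2204.4, 2740.9 and 2664.8 in LD (0.06 ± 0.12). Acaca, the carboxylase that commits acetyl-CoA to fatty acids, was at 85.7, 79.1 and 55.9 in PMN-MDSC Ctrl and at 132.6, 78.0 and 140.2 in LD (0.64 ± 0.22, adjusted p = 0.065). Fasn, the fatty acid synthase, was at 37.7, 34.3 and 19.2 in PMN-MDSC Ctrl and at 60.9, 44.1 and 37.9 in LD (0.66 ± 0.27, adjusted p = 0.119), and at 475.4, 551.2 and 439.8 in M-MDSC Ctrl and 662.1, 682.7 and 452.2 in M-MDSC LD (0.28 ± 0.27). LD 003 was the lowest of the LD libraries for Fasn in both populations.

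Of the desaturases, Scd2 and Fads1 were tested and did not pass in either population. Scd2, which puts the first double bond into saturated fatty acids, was at 566.8, 512.9 and 413.4 in M-MDSC Ctrl and at 839.6, 1148.0 and 815.7 in LD, with no overlap (log2 change 0.90 ± 0.28, adjusted p = 0.11), and at 80.6, 42.2 and 41.5 in PMN-MDSC Ctrl and 121.7, 61.8 and 85.5 in LD (0.72 ± 0.28, adjusted p = 0.098, and past the threshold without PMN-MDSC Ctrl 001 or LD 002). Its paralogue Scd1 was at 31.6, 16.7 and 6.4 in PMN-MDSC Ctrl and had 0 reads in each of the 3 PMN-MDSC LD libraries. A count of 0 allows up to 3 reads, or between 4.06 and 4.41 normalized counts per library, so the Ctrl mean of 18.2 ± 12.7 (SD, n = 3) put Scd1 at least 4.13-fold lower in LD. Without PMN-MDSC Ctrl 001 that bound was 2.62-fold. In a limma fit with no minimum level, the one setting that kept it, Scd1 fell in PMN-MDSC (adjusted p = 0.00833), and in M-MDSC it ranged from 1.9 to 7.8 in Ctrl and from 3.6 to 11 in LD. How reads that match both Scd1 and Scd2 were counted is not given in the sources used here. Fads1, a desaturase of polyunsaturated fatty acids, was at 35.0, 12.4 and 12.9 in M-MDSC Ctrl and at 66.6, 37.4 and 61.1 in LD (1.53 ± 0.73, adjusted p = 0.39), and at 0.0, 1.8 and 6.4 in PMN-MDSC Ctrl and 13.5, 8.8 and 4.2 in LD (1.73 ± 0.73, adjusted p = 0.122). Its partner Fads2 had 0 reads in the 6 PMN-MDSC libraries and at most 6.9 normalized counts in M-MDSC. Elovl6, which lengthens palmitate, was at 153.7, 160.8 and 169.4 in M-MDSC Ctrl and at 62.3, 86.6 and 90.6 in LD. It did not overlap between the groups in the direction opposite to Scd2, and its log2 change of -1.02 ± 0.55 missed the threshold (adjusted p = 0.477). With M-MDSC fitted alone Elovl6 passed as lower.

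As a summary per library, the 19 sterol enzymes had geometric means of 55.2, 58.6 and 61.1 normalized counts in PMN-MDSC Ctrl and of 88.6, 85.7 and 94.9 in PMN-MDSC LD. In M-MDSC they were at 96.6, 116.0 and 107.4 in Ctrl and at 124.8, 139.4 and 119.1 in LD. The 8 fatty acid enzymes were at 27.3, 21.0 and 20.8 in PMN-MDSC Ctrl and at 24.1, 18.7 and 22.6 in LD, where Scd1 at 0 lowers the mean, and at 105.6, 95 and 102.0 in M-MDSC Ctrl and 134.4, 139.7 and 135.7 in LD. The sterol mean was thus higher in every LD library than in the Ctrl libraries of its population, and the fatty acid mean was so in M-MDSC only. Low genes weigh as much as others in these means. In M-MDSC the largest log2 changes of the 8 were those of the low genes Fads1 (1.53) and Fads2 (1.4, with no minimum level). Scd2 followed at 0.90, Fasn, Acaca, Scd1 and Acly were at 0.28 or less, and Elovl6 was at -1.02. In M-MDSC 0 of the 6 tested fatty acid enzymes passed. No test was made of these means.

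Marker genes differed between LD and Ctrl in the same libraries. In PMN-MDSC, 5 granule genes of immature neutrophils (Ltf, Ngp, Camp, Lcn2 and Chi3l3) summed to between 110359 and 124897 normalized counts in Ctrl and to between 241060 and 333828 in LD. The 6 neutrophil genes summed to between 359472 and 390861 in PMN-MDSC Ctrl and to between 506581 and 581846 in LD. Csf3r, which is in that sum, went the other way. It was at 157385.9, 153564.7 and 169452.1 in PMN-MDSC Ctrl and at 98419.9, 101933.5 and 95898.8 in LD. By group mean S100a8, S100a9, Retnlg and Mmp9 were higher in PMN-MDSC LD, and Cxcr2 was nearly level. In M-MDSC the neutrophil genes summed to between 5554 and 6246 in Ctrl and to between 9267 and 38515 in LD, and 6 primary granule and progenitor genes to between 225.8 and 288.3 and to between 1620 and 7547. By group mean Csf3r was lower in M-MDSC LD too, while the other neutrophil genes were higher. Csf3r was at 4501.3, 4419.8 and 4749.8 in M-MDSC Ctrl and at 4479.1, 3674.9 and 3746.5 in LD. The 7 cycling genes summed to between 2632 and 3472 in PMN-MDSC Ctrl and to between 1992 and 9947 in PMN-MDSC LD, and to between 1128 and 1389 and between 3762 and 12710 in M-MDSC. The PMN-MDSC LD 001 library, with the highest Mki67 of its group, had the lowest value of its group for 6 of the 11 genes that rose there (Srebf2, Sc4mol, Sqle, Fdps, Fdft1 and Acly), the highest for Nsdhl, Stard4 and Npc2, and the middle one for Hmgcs1 and Cyp51. The 6 monocyte genes summed to between 8167 and 9981 in PMN-MDSC LD, against between 9755 and 12056 in PMN-MDSC Ctrl. In M-MDSC they summed to between 59518 and 78261 in LD, against between 89344 and 107484 in Ctrl. By group mean Fn1, F13a1 and Ccr2 were lower in M-MDSC LD, while Ly6c2, Csf1r and Irf8 were higher. In PMN-MDSC LD Ly6c2 was higher and the others lower. The 6 macrophage genes summed to between 60.6 and 130.1 in M-MDSC Ctrl and to between 292.9 and 361.5 in M-MDSC LD, and to between 189.9 and 281.3 in PMN-MDSC Ctrl and 194.2 and 420.6 in PMN-MDSC LD. Dendritic cell genes summed to at most 410.1, plasma cell genes to at most 396.1, stromal and endothelial genes to at most 220.5, platelet genes to at most 105.3 and NK cell genes to at most 100.7 in any library. Markers of other cells were low too: the 4 T cell genes found in the table summed to at most 147.1 in any library, the 5 B cell genes to at most 127.5, the 5 melanoma genes to at most 21.0 and the 5 erythroid genes to at most 18.9, with Hbb-b1 and Hba-a1 at 0 in the 12 libraries. The part of these shifts in the changes of the sterol genes was not tested.

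**Figure D3:**
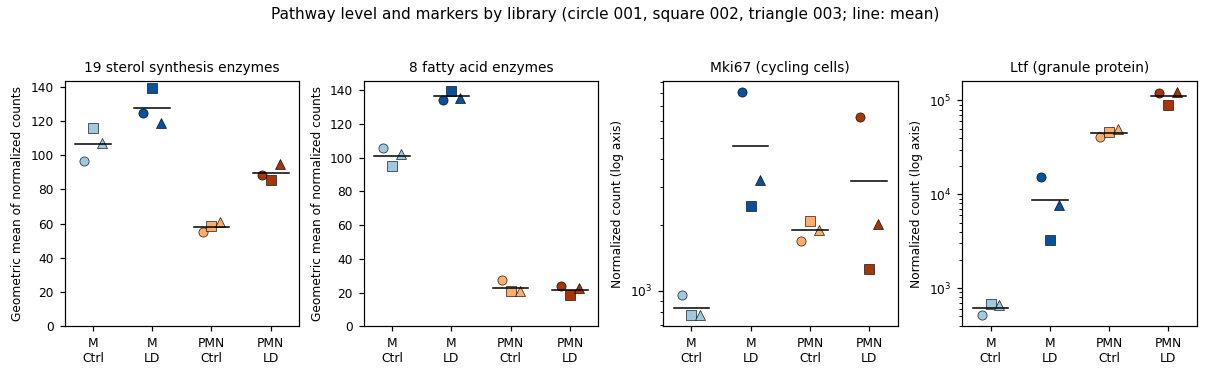
The geometric mean of the 19 sterol synthesis enzymes and of the 8 fatty acid enzymes (vertical axes in normalized counts, from 0) is shown beside Mki67 and Ltf (log axes) in each of the 12 libraries, with lines for group means. In PMN-MDSC the sterol mean lies between 85.7 and 94.9 in LD and between 55.2 and 61.1 in Ctrl, while Mki67 is highest in LD 001 of both populations.

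The change with lymphodepletion was compared between the populations by the difference of the 2 log2 changes. Srebf2 and Sc4mol changed by less in M-MDSC than in PMN-MDSC: the difference (M-MDSC minus PMN-MDSC) was -1.04 ± 0.17 for Srebf2 (adjusted p = 0.00849) and -1.06 ± 0.19 for Sc4mol (adjusted p = 0.012), and each held in 12 of 12 fits without 1 library. These were 2 of the 32 genes, all lower, where 1.07% of all tested genes were lower, 1.18% higher and 2.25% passed in either direction. Without the LD 001 libraries the same 2 genes passed, while calls over all genes went from 119 lower and 131 higher to 345 and 422. Of the 11 genes that rose in PMN-MDSC, 10 had a positive log2 change in M-MDSC too. They were picked by their PMN-MDSC change, so the sizes of the changes in the 2 populations are not compared over them. For the other 9 of the 11 the difference did not pass the threshold. It was -0.67 ± 0.19 for Hmgcs1 (adjusted p = 0.082), -0.50 ± 0.17 for Acly, -1.15 ± 0.49 for Nsdhl, -1.36 ± 0.61 for Sqle, -0.73 ± 0.38 for Cyp51, -0.52 ± 0.33 for Fdps, -0.44 ± 0.16 for Npc2, -0.41 ± 0.43 for Stard4 and -0.20 ± 0.30 for Fdft1. A difference that misses the threshold does not show that the populations responded alike.

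Most of the genes, like most of the tested genes, differed between the populations. In Ctrl mice, M-MDSC had the higher level for 23 of the 32 and the lower for 4, where 38.8% of all tested genes were higher, 36.8% lower and 75.6% passed in either direction, and the median log2 difference (M-MDSC minus PMN-MDSC) was 1.58 over the 32 genes and 0.06 over all tested genes. The 6 tested fatty acid enzymes were all higher in M-MDSC. Fasn differed by 4.01 ± 0.27 (log2, adjusted p = 6.0e-09), Elovl6 by 3.72 ± 0.55, Scd2 by 3.22 ± 0.28 (8.7e-08), Acaca by 2.89 ± 0.22 (2.1e-08), Fads1 by 2.79 ± 0.73 and Acly by 0.57 ± 0.12. Acaca was at 536.3, 526.3 and 562.7 in M-MDSC Ctrl, against 85.7, 79.1 and 55.9 in PMN-MDSC Ctrl. For these 6 genes no PMN-MDSC Ctrl library reached the lowest M-MDSC Ctrl library, where 81% of all tested genes did not overlap in either direction.

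The sterol genes were split. The mevalonate enzymes Mvk, Idi1, Fdps, Mvd and Hmgcs1 were higher in M-MDSC Ctrl, by log2 differences of 2.45 ± 0.54, 2.11 ± 0.63, 2.10 ± 0.23, 1.30 ± 0.34 and 1.19 ± 0.14. Sqle, Cyp51, Dhcr7, Nsdhl, Lss, Fdft1, Tm7sf2 and Ebp were higher too, by differences from 0.64 ± 0.21 for Ebp to 2.99 ± 0.43 for Sqle. The Ebp call was lost without M-MDSC Ctrl 002. That of Tm7sf2 was lost without M-MDSC Ctrl 002 or 003 or any 1 PMN-MDSC Ctrl library. Both were lost with upper-quartile scaling. The opposite direction was found for 4 genes. Lbr was lower in M-MDSC Ctrl, with a log2 difference of -2.66 ± 0.12 (adjusted p = 7.3e-11), Hsd17b7 was at 4.5, 6.7 and 10.1 against 23.5, 38.7 and 41.5 (-2.15 ± 0.51), and Pmvk at 121.3, 82.3 and 76.3 against 212.2, 236.4 and 234.6 (-1.31 ± 0.21). Ggps1 was at 165.4, 259.3 and 198.6 against 325.4, 240.8 and 322.4, an overlap of groups, and its difference of -0.52 ± 0.19 was lost without M-MDSC Ctrl 001 or 003 or PMN-MDSC Ctrl 001 or 003. Sc4mol (0.24 ± 0.14) and Acat2 (-0.53 ± 0.45) did not pass. Of the control and transport genes, Srebf2 (1.36 ± 0.12), Insig1 (2.22 ± 0.26), Stard4 (2.65 ± 0.30) and Npc2 (2.53 ± 0.11, adjusted p = 6.2e-11) were higher in M-MDSC Ctrl, and Scap, Insig2 and Npc1 did not pass.

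After lymphodepletion M-MDSC had the higher level for 18 of the 32 and the lower for 4, where 38.8% of all tested genes were higher, 36.1% lower and 74.8% passed in either direction, with a median of 1.05 beside 0.10. Genes that passed in both Ctrl and LD numbered 21, and the 21 kept their direction, 18 of them higher in M-MDSC. Sc4mol, which had not passed in Ctrl, was lower in M-MDSC LD than in PMN-MDSC LD by -0.82 ± 0.14 (adjusted p = 7.0e-05). Acly (0.07 ± 0.12), Ggps1 (-0.08 ± 0.19), Ebp (0.23 ± 0.21), Mvk, Idi1 and Nsdhl, which had passed in Ctrl, did not pass in LD. Srebf2 differed by 0.32 ± 0.12 (adjusted p = 0.0302) with overlapping groups. That call was lost without M-MDSC LD 002 or 003 or PMN-MDSC LD 001 or 002. The Srebf2 call was also lost with no minimum level, with upper-quartile scaling and with the LD libraries fitted alone. Tm7sf2 (0.84 ± 0.30) was lost without M-MDSC LD 003, with upper-quartile scaling and with the LD libraries fitted alone. The log2 differences in LD were 3.63 ± 0.27 for Fasn, 3.4 ± 0.28 for Scd2 and -2.33 ± 0.12 for Lbr. The deposited scaling bears on these directions: with upper-quartile scaling of the recovered reads the median over all genes was -0.13 in Ctrl and -0.08 in LD, with 3808 genes higher and 4528 lower in Ctrl, and the genes described here were 21 higher and 5 lower in Ctrl.

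**Figure D4:**
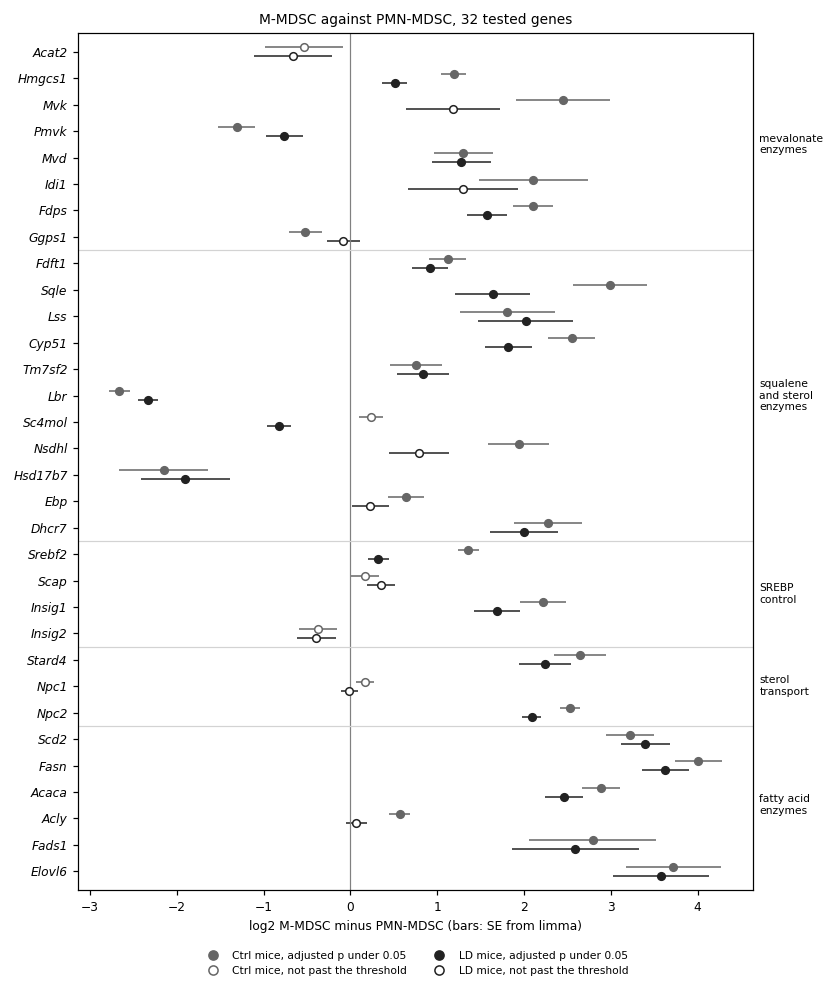
The log2 difference between M-MDSC and PMN-MDSC (horizontal axis, bars are standard errors from limma, n = 3 libraries per group) is shown for the 32 tested genes in Ctrl (grey) and LD mice (black), with filled circles for an adjusted p under 0.05. The fatty acid enzymes lie to the right, with Fasn at 4.01 in Ctrl, Lbr lies at -2.66, and Sc4mol moves from 0.24 in Ctrl to -0.82 in LD.

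Per kilobase of annotated exon, the most abundant of the 34 genes in M-MDSC Ctrl were Npc2 (612.83 ± 53.64 normalized counts per kb, SD, n = 3), Acly (459.65 ± 30.02), Lbr (302.63 ± 19.25) and Srebf2 (210.7 ± 9.15), and these neighbours differed by more than their SDs. In PMN-MDSC Ctrl, Lbr led with 1911.9 ± 125.39 per kb, followed by Acly (311.76 ± 42.32), Pmvk (132.96 ± 7.89) and Npc2 (106.09 ± 8.58), with Npc1 (91.01 ± 8.08) and Srebf2 (81.87 ± 1.91) within about their SDs of each other. In PMN-MDSC LD, Srebf2 came after Lbr and Acly, at 235.39 ± 32.94 per kb. The lowest were Fads2 and Scd1 in M-MDSC Ctrl, at 0.36 ± 0.32 and 1.16 ± 0.67 per kb.

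Other genes of the same pathways were taken from a list of related genes by name, and 50 of them were in the table, 42 of which were tested. In PMN-MDSC, 9 of the 42 rose and 4 fell with lymphodepletion, where 7.17% of all tested genes rose and 8.51% fell. Without the LD 001 libraries 11 rose and 5 fell, while over all genes the calls went from 798 higher and 947 lower to 1163 and 1295. In M-MDSC limma called 0 in either direction, and 12 had an unadjusted p under 0.05, a share that was 13.1% over all tested genes. Without the LD 001 libraries 1 was higher in M-MDSC, beside 357 higher and 100 lower over all genes. Among those that rose in PMN-MDSC were the acyl-CoA synthetases Acsl5 (0.57 ± 0.11) and Acsl4 (0.46 ± 0.10), the elongases Elovl7 (1.20 ± 0.34) and Elovl1 (0.50 ± 0.13), the cholesteryl ester hydrolase Nceh1 (0.59 ± 0.14) and Nfyb, a subunit of the factor that binds CCAAT (0.58 ± 0.15). The call of Elovl7 was lost without any 1 PMN-MDSC library other than LD 001, Elovl1 was lost without PMN-MDSC Ctrl 002 or 003, and Nfyb without PMN-MDSC Ctrl 001 or LD 002. The other subunits Nfya and Nfyc had log2 changes of 0.02 ± 0.10 and -0.16 ± 0.17. Among those that fell were Mylip, a sterol-responsive ubiquitin ligase (-0.67 ± 0.12, from 2359.5, 2556.8 and 2338.4 to 1397.2, 1600.3 and 1555.1) and Mbtps1, the protease that makes the first cut in SREBP precursors (-0.46 ± 0.10, from 894.6, 826.2 and 876.3 to 695.2, 592.8 and 605.8). Mbtps1 thus fell in the same libraries in which Srebf2 rose. Srebf1, the SREBP gene tied more to fatty acid synthesis, also fell, at 623.3, 480.8 and 523.6 in PMN-MDSC Ctrl and 480.2, 376.5 and 312.7 in LD. The groups all but touched, with LD 001 just under Ctrl 002, and the log2 change was -0.49 ± 0.15 (adjusted p = 0.0384). That call was lost without any 1 M-MDSC Ctrl library, M-MDSC LD 003, PMN-MDSC Ctrl 001 or 003, or PMN-MDSC LD 002 or 003, and in M-MDSC the change was 0.21 ± 0.15. The difference between the populations passed for 1 gene that was higher and 2 that were lower, among them Mylip at 0.92 ± 0.17 (adjusted p = 0.012) and Nceh1 at -0.90 ± 0.20 (adjusted p = 0.0342), the latter held only without M-MDSC Ctrl 001, M-MDSC LD 002 or PMN-MDSC LD 001 among the 12 fits without 1 library. Between the populations in Ctrl, 20 of the 42 had higher levels in M-MDSC and 15 lower, and in LD 18 and 15, where all tested genes had 38.8% higher and 36.8% lower in Ctrl and 38.8% and 36.1% in LD. Among the higher ones in Ctrl were Gpam and Lpin1 of triglyceride synthesis (4.56 ± 0.78 and 4.19 ± 0.30), the elongase Elovl5, the citrate carrier Slc25a1, the SREBP proteases Mbtps1 and Mbtps2, the cholesterol esterifying enzyme Soat1, and Acat1, Acsl3, Acsl4, Acsl5, Cyb5b, Erlin1, Fntb, Nceh1, Pdss1 and Pggt1b. Among the lower ones were Mylip (-3.05 ± 0.12), Aacs (-2.89 ± 0.12), the sterol desaturase Sc5d (-3.16 ± 0.24), Elovl7, Elovl1, Acsl1, Acss2, Dhdds, Rnf139, Nfya, Nfyb, Nfyc and Sp1. Nceh1 was higher in M-MDSC in Ctrl (0.39 ± 0.14, in 8 of 12 fits without 1 library) and lower in LD (-0.51 ± 0.14).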

How the data were processed

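RNA-seq of M-MDSC and PMN-MDSC from Ctrl and LD mice was analysed from 12 libraries. Per the labels' protocols, rRNA-depleted total RNA libraries were made, and the submitters' processing notes list HTSeq 0.6.1, STAR 2.5.3a, DESeq2 and the build mm10, with no roles given. The authors deposited 1 table of normalized counts (a signal: reads divided by a size factor per library), and 100% of its values were whole reads within 0.001 reads, so reads and depth were recovered. The strandedness is not given in the sources used here.

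Changes were tested in R 4.3.3 with limma 3.58.1, after adding 1 to each normalized count and taking log2, for genes that averaged at least 10 over the 12 libraries (11122 genes), in a model of group means with a trended empirical Bayes and 8 residual degrees of freedom. Tests were two-sided, with Benjamini-Hochberg adjusted p-values over all genes tested and a threshold of 0.05. Adding 1 understates changes of low genes. The fits were tested on simulated data. Alternatives were other pseudocounts, minimum levels and scalings, edgeR 4.0.16 and DESeq2 1.42.0 on the recovered reads, robust estimation, replicate blocks, separate fits and libraries left out. On the recovered reads edgeR called 388 genes higher and 52 lower for LD in M-MDSC, and 709 and 1033 in PMN-MDSC. Positions and exon lengths are from GENCODE vM21 (mm10), promoter windows from RefSeq. Python 3.11.15, numpy 2.4.6, pandas 2.3.3 and matplotlib 3.10.9 were used. Recovered reads carry no molecular identifiers, so the limit set by a count of 0 covers counting error only. Replicate pairs differed by more than counting noise, with a chi-square of 7.79 to 31.44 per degree of freedom.

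The 34 genes and the lists were chosen with earlier results of these data known. Values per library are given for genes that passed in an LD comparison, and for up to 10 genes each way between the populations. Hmgcs1, Sqle, Insig1, Srebf2, Scd1, Scd2 and Fasn are named in any case, and related genes where they passed. Non-overlap remarks were added with the values in view. A few related genes covered by this rule are left unnamed and not reported here, though they are counted.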

Additional observations from a re-analysis of the deposited data

Results flagged for a closer look

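The log2 change with lymphodepletion differed between the populations for Srebf2 and Sc4mol, by limma's test of the difference itself. For Srebf2 the M-MDSC change minus the PMN-MDSC change was -1.04 ± 0.17 (SE, adjusted p = 0.00849), with changes of 0.47 in M-MDSC and 1.51 in PMN-MDSC. For Sc4mol it was -1.06 ± 0.19 (adjusted p = 0.012), with changes of 0.20 and 1.26. In both genes 3 of 3 PMN-MDSC LD libraries lay above the 3 Ctrl libraries, and the 3 M-MDSC LD libraries lay above their Ctrl libraries by less.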

How the results depend on the processing

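In M-MDSC 1 gene passed for LD against Ctrl (Lbr). With a pseudocount of 8, 2 passed, with edgeR 4 (Fdps, Lbr, Scd2 and Srebf2), with DESeq2 5 and without both LD 001 libraries 2. With the population fitted alone 6 passed, 5 higher and 1 (Elovl6) lower. With no minimum level 0 passed, and with upper-quartile scaling 0. Leaving out 1 library gave 0 to 2. In PMN-MDSC 11 passed, and 7 with the population fitted alone. A separate fit leaves fewer degrees of freedom in either population. Why its calls were fewer in PMN-MDSC and more in M-MDSC was not tested. The other settings in PMN-MDSC gave 10 to 13 calls, and leaving out 1 library 8 to 12. With no minimum level the 10 calls were 9 higher and 1 lower (Scd1). Replicate numbers share nothing that the labels state, and same-numbered libraries had correlations of -0.10 to 0.21 in their deviations, not over 0.1 in each pair of any 2 groups. Between M-MDSC LD and PMN-MDSC LD the same-numbered values were 0.21, 0.12 and 0.07, and those of unlike numbers -0.16 to 0.05. Whether same-numbered LD libraries share an animal was not tested. With the replicate block 11 genes passed in PMN-MDSC and 1 in M-MDSC. Tm7sf2 between the populations in Ctrl passed with neither block, nor with no minimum level. Insig1 in M-MDSC changed sign without M-MDSC LD 002 (range -0.07 to 0.36 over the libraries left out), and the difference for Scd2 without PMN-MDSC Ctrl 001 or PMN-MDSC LD 002 (-0.05, range -0.13 to 0.43), and neither had passed. Over all genes the PMN-MDSC calls were 798 higher and 947 lower, and 464 and 425 without PMN-MDSC Ctrl 003 or 475 and 623 without 002. Those in M-MDSC were 283 and 52, and 549 and 174 with DESeq2, 406 and 126 fitted alone, 433 and 115 without PMN-MDSC LD 001, and 167 and 25 without M-MDSC Ctrl 001. For the difference they were 131 and 119, 194 and 96 with edgeR, 367 and 325 with DESeq2, 56 and 69 with no minimum level, 459 and 365 without PMN-MDSC LD 001, 422 and 345 without both LD 001 libraries, and 315 and 221 with a replicate block by treatment and number. For 77 values of single genes, 1805 of 1885 recomputed values kept direction and side of the threshold, and the cause of the other changes was not tested. Depth limits the low genes: among those that rose in PMN-MDSC, Sqle, Fdps, Nsdhl and Stard4 were under 40 normalized counts in each PMN-MDSC Ctrl library, and so were Mvk, Idi1, Lss, Dhcr7, Fasn, Fads1, Fads2, Elovl6 and Scd1.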
